A study of Ciona robusta with 9 samples.

Results

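A set of 76 genes was taken from the 15284 gene models measured by RNA sequencing in embryos of Ciona robusta, an ascidian (sea squirt). They are the genes raised by a Brachyury plasmid under neural regulatory DNA and little changed on average by one under muscle regulatory DNA. Fertilized, dechorionated eggs were electroporated with 1 of 3 plasmids, grown in artificial seawater at 21 °C and collected at Hotta stage 19.5, with 400 embryos pooled per sample. The control plasmid, Bra>GFP, joined Bra regulatory DNA to green fluorescent protein. Etr1>Venus-Bra and Tbx6-r.b>Venus-Bra (here Etr1>Bra and Tbx6-r.b>Bra) each carried Bra fused to the fluorescent protein Venus. Each group had 3 libraries, described by the submitters as biological replicates. Whether they came from separate batches of eggs is not stated, so p-values reflect only the spread among these 9 samples. Neither the neural nor the muscle regulatory DNA was tested without Bra, so differences from control have more than 1 possible source in the plasmids.

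Brachyury (Bra) is a T-box transcription factor that in Ciona is expressed in the developing notochord, the stiff rod along the axis of the larval tail, and activates genes that notochord cells use. Regulatory DNA of Etr1, a gene for an RNA-binding protein of the nervous system, directs a transgene to neural cells. Regulatory DNA of Tbx6-r.b, a T-box gene of the muscle lineage, directs one to tail muscle. Electroporated plasmids are usually inherited by part of the cells of an embryo. In RNA from whole embryos, a change in the number of cells of a type and a change in RNA per cell cannot be told apart.

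Members were chosen on the measured values themselves. For each replicate number, E was the log2 ratio of Etr1>Bra to control, and T the log2 ratio of Tbx6-r.b>Bra to control, each on deposited normalized counts with 1 added. Of 10671 genes with an Etr1>Bra mean of at least 20 normalized counts, 329 had a mean E of at least 1. E was above 0 in every replicate number for 305 of these, and 76 of the 305 had a mean T under 0.5. The other 229 had a mean T of 0.5 or more and are called the commonly raised genes below. Unlike E, T was not required to be above 0 in every replicate number for them. Because E and T chose the members, their values in the same libraries are a description. The fits across all genes given further on use the same values, and nothing is read from their counts of members. Comparisons of either construct with control used the same 3 control libraries, so E and T of a gene are not independent.

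The deposited tables pair no symbols with these gene IDs, and 0 of them matched the RefSeq gene table of the species (21486 genes). The members are therefore given by ID, with no gene name, function or sequence. For the same reason, Bra itself and markers of neural, muscle, notochord or other cells could not be located, and neither the expression of the constructs nor the cell types of the members were checked.

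Total reads ran from 9043181 to 10399304 per library. Of the Etr1>Bra libraries, replicate 3 stood apart. Over the 10671 genes, the standard deviation of E across genes was 0.44 in replicate 1, 0.48 in replicate 2 and 0.69 in replicate 3. The corresponding values for T were 0.41, 0.50 and 0.41. Medians and counts of the 76 members over replicates 1 and 2 alone are therefore given beside the main ones.

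The description "raised only with neural-driven Brachyury" went further than the data. Mean T was above 0 in 67 of the 76 members and below 0 in 9. It lay between 0.25 and 0.5 in 41 members and between 0 and 0.25 in 26. Each T was above 0 in 27 members, each was below 0 in 2, and 47 had both signs. The members had a median mean T of 0.27, against −0.02 over the 10671 genes. Since E and T share their controls, this shift is not independent of the choice on E. Over replicates 1 and 2 alone, the same 76 members had a median mean T of 0.26, with 67 above 0 and 9 below. Of the 67, 26 lay between 0 and 0.25, 26 between 0.25 and 0.5, and 15 at or above the limit of 0.5. The limit at 0.5 fell on no gap: 48 commonly raised genes had a mean T between 0.5 and 0.75, while 146 had one of at least 1.

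**Figure D1:**
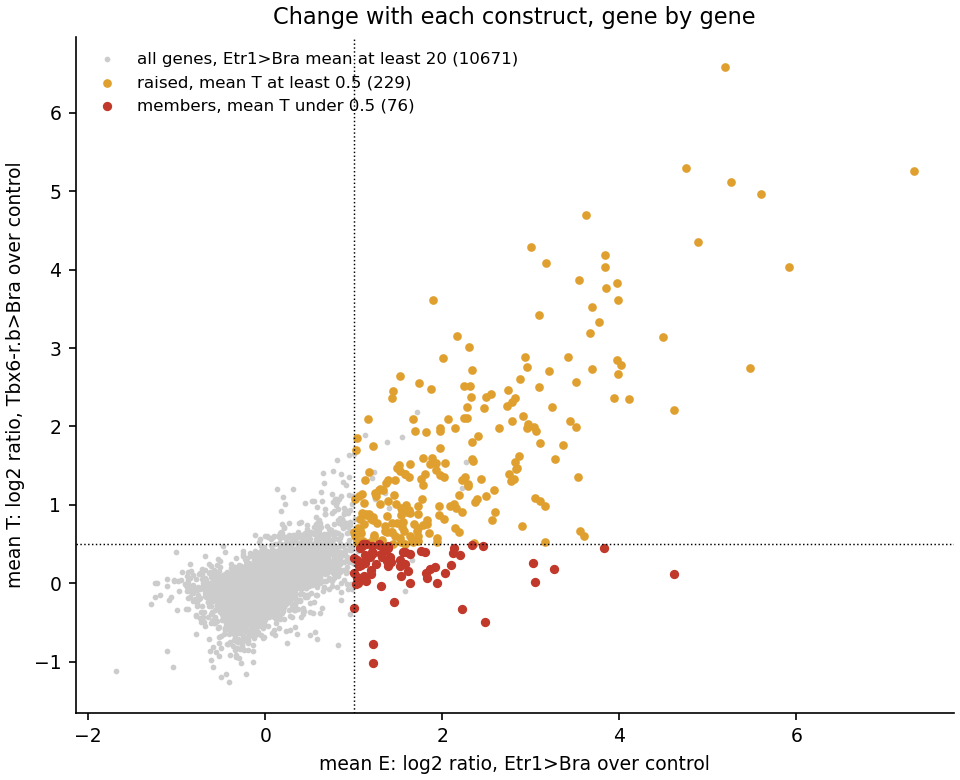
Mean E (horizontal axis, log2 ratio of Etr1>Bra to control) against mean T (vertical axis, log2 ratio of Tbx6-r.b>Bra to control) for 10671 genes, with 1 point per gene and the thresholds at 1 and 0.5 as dotted lines. The 76 members (red) lie directly under the 229 commonly raised genes (orange) with no gap between them, and 67 members lie above 0 on the vertical axis.

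The genes nearest each threshold differed little across it. For mean T, KH.C2.667 was just inside at 0.498 and KH.C10.429 just outside at 0.503. For mean E, KH.C9.49 was inside at 1.0001 and KH.C12.161 outside at 0.995. For the Etr1>Bra mean, KH.C1.1276 was inside at 20.6 normalized counts and KH.S423.8 outside at 17.7.

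Mean E was modest in most members. It ran from 1.0 to 4.61 with a median of 1.36. It was 2 or more in 14 members, between 1.5 and 2 in 16 and under 1.5 in 46. E reached 1 in every replicate number for 16 members and 0.5 in every one for 50. Without replicate 3 the median of the same 76 members was 0.97, from 0.40 to 4.27. Mean E was then 2 or more in 5 members, at least 1 in 33 and under 1 in the other 43. Over all replicate numbers, the commonly raised genes had a median mean E of 1.96, with a highest value of 7.33.

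**Figure D2:**
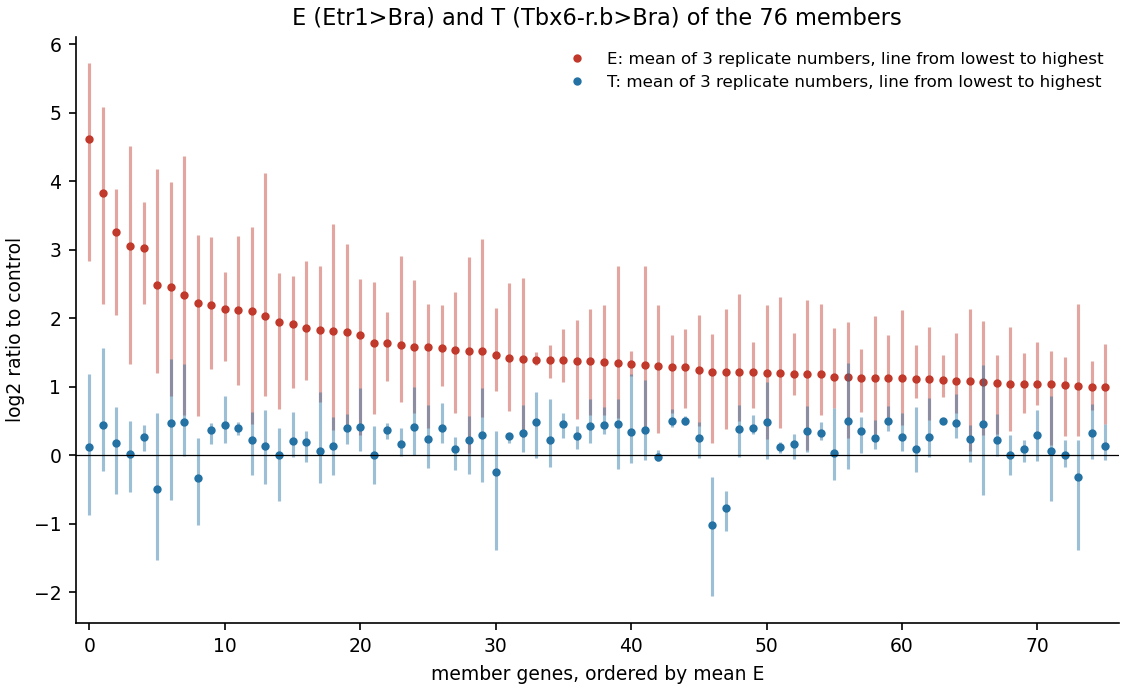
E (red) and T (blue) of the 76 members in log2 units, ordered along the horizontal axis by mean E; points are means over the 3 replicate numbers and lines run from the lowest to the highest. Mean E falls from 4.61 to 1.0, the red lines are often longer than 1 log2 unit, and the blue means scatter between −1.02 and 0.50.

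Members were sorted by their control level, as a measure of whether they were near silent or already active in control embryos. The control mean was under 10 normalized counts in 11 members, from 10 to 100 in 43 and over 100 in 22. Over control replicates 1 and 2 alone these counts were 9, 45 and 22. As shares of the members the counts over all 3 controls were 14.5%, 56.6% and 28.9%. Over all 10671 genes the shares were 0.993%, 28.1% and 70.9%, and over the commonly raised genes 37.6%, 49.8% and 12.7%. The members thus held a smaller share of near-silent genes than the commonly raised genes and a larger share of genes over 100, a difference that was not tested. The median control mean was 35.6 for members, 18.3 for commonly raised genes and 230.2 for all. A gene with a control mean under 10 had to rise past 20 to be chosen, so the larger E of near-silent members follows in part from the rule. The 10671 genes also had to reach an Etr1>Bra mean of 20, which left out near-silent genes that did not rise. Their small share of near-silent genes and their higher median control mean therefore follow in part from that limit.

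Among the 11 near-silent members, mean E ran from 1.22 to 4.61 with a median of 2.20. Their control reads numbered 7 to 29 over all 3 libraries, so their ratios carry large counting error. KH.C8.898 had the largest mean E of all members. Its normalized counts in replicates 1, 2 and 3 were 12.4, 4.75 and 9.49 in control, 94.1, 302 and 409.6 in the Etr1>Bra libraries, and 12.7, 12 and 4.67 in the Tbx6-r.b>Bra libraries. All Etr1>Bra libraries stood far above the others, and the Tbx6-r.b>Bra libraries overlapped with control. Mean E was 4.61 ± 1.56 (SD, n = 3) and mean T 0.12 ± 1.03. Over replicates 1 and 2 alone they were 4.27 and 0.61, a mean T past the limit.

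KH.C3.4 stood at 5.15, 3.8 and 1.90 in control, 27.5, 86.6 and 97.2 in the Etr1>Bra libraries, and 4.22, 13 and 1.87 in the Tbx6-r.b>Bra libraries. Its second Tbx6-r.b>Bra library lay above every control library while the others did not, which left mean T at 0.44 ± 0.97, close to the limit and at 0.67 without replicate 3. KH.C8.226 stood at 2.06, 0.950 and 4.74 in control, 11.6, 27.2 and 84.3 in the Etr1>Bra libraries, and 1.06, 2.17 and 6.54 in the Tbx6-r.b>Bra libraries. KH.C1.132 stood at 1.03, 3.8 and 1.90 in control, 7.40, 10.1 and 51.6 in the Etr1>Bra libraries, and 2.11, 2.17 and 0 in the Tbx6-r.b>Bra libraries. The last of these genes rested on 7 control, 69 Etr1>Bra and 4 Tbx6-r.b>Bra reads, and most of its Etr1>Bra reads came from replicate 3. Without that replicate its mean E was 1.63, and that of KH.C8.226 was 2.95.

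In the 43 members with a control mean from 10 to 100, mean E ran from 1.0 to 3.05 with a median of 1.36. KH.C1.1241 stood at 23.7, 11.4 and 13.3 in control, 61.3, 121 and 324 in the Etr1>Bra libraries, and 15.8, 16.3 and 14 in the Tbx6-r.b>Bra libraries. The Tbx6-r.b>Bra libraries lay within the control range, with a mean T of 0.01 ± 0.52 beside a mean E of 3.05 ± 1.6. KH.L147.40 had about as large a change with less spread between libraries, at 15.5, 19.0 and 11.4 in control and 75, 181 and 159.7 with Etr1>Bra. Its Tbx6-r.b>Bra values were 21.1, 19.6 and 14, and mean E was 3.03 ± 0.76.

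KH.C3.446 had the largest spread of E among members, 3.79 log2 units from lowest to highest. It stood at 35.0, 13.3 and 19.9 in control, 52.8, 58.4 and 432 in the Etr1>Bra libraries, and 38.0, 34.8 and 19.6 in the Tbx6-r.b>Bra libraries. One Etr1>Bra library, replicate 3, supplied most of its mean. Without it mean E was 1.32 and mean T 0.73. KH.C2.774 was similar in this, at 21.6, 11.4 and 7.59 in control and 40.2, 26.2 and 148 with Etr1>Bra, and its mean E without replicate 3 was 0.997. KH.C1.1042 had a mean T below 0 (−0.33 ± 0.64) beside a mean E of 2.22 ± 1.44. Its values were 70.1, 24.7 and 40.8 in control, 105, 187 and 389 in the Etr1>Bra libraries, and 33.8, 29.3 and 34.6 in the Tbx6-r.b>Bra libraries, the last within the control range.

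The 22 members over 100 in control had mean E from 1.0 to 2.13 with a median of 1.20. KH.C5.367 led them, at 126, 99.8 and 102 in control and 256, 451 and 936 in the Etr1>Bra libraries. The Tbx6-r.b>Bra libraries gave 164, 139 and 123, a mean T of 0.39 ± 0.10 that was above 0 in each replicate number. Its mean E over replicates 1 and 2 alone was 1.59. KH.C12.334 stood at 105, 92.2 and 104 in control, 159.6, 322 and 606 in the Etr1>Bra libraries, and 106, 123 and 76.6 in the Tbx6-r.b>Bra libraries. Here the Tbx6-r.b>Bra libraries lay on both sides of the controls, with a mean T of 0.01 ± 0.43. KH.C2.739 stood at 172, 171 and 159 in control, 347, 481 and 733 in the Etr1>Bra libraries, and 193, 287 and 191 in the Tbx6-r.b>Bra libraries. Every library of either construct exceeded every control for this gene.

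The most abundant members with Etr1>Bra were KH.C4.71, KH.L37.72 and KH.L34.17. KH.C4.71 stood at 1147, 1158 and 969.9 in control, 1802, 2452 and 5541 in the Etr1>Bra libraries, and 1412, 1299 and 1206 in the Tbx6-r.b>Bra libraries. Its mean E was 1.42 ± 0.97 and its mean T 0.27 ± 0.08, so it too lay slightly above control in all Tbx6-r.b>Bra libraries. Its mean E was 0.87 over replicates 1 and 2 alone. KH.L37.72 went from 1367 ± 147 in control to 2844 ± 1026 under Etr1>Bra, and KH.L34.17 from 1043 ± 83.2 to 2236 ± 836. Their Tbx6-r.b>Bra means were 1714 ± 346 and 1092 ± 43.5, and for both genes these libraries overlapped with control. Over replicates 1 and 2 alone, KH.L37.72 had a mean E of 0.81 and a mean T of 0.52, outside both limits. KH.L34.17 then had a mean E of 0.82 and a mean T of 0.18.

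**Figure D3:**
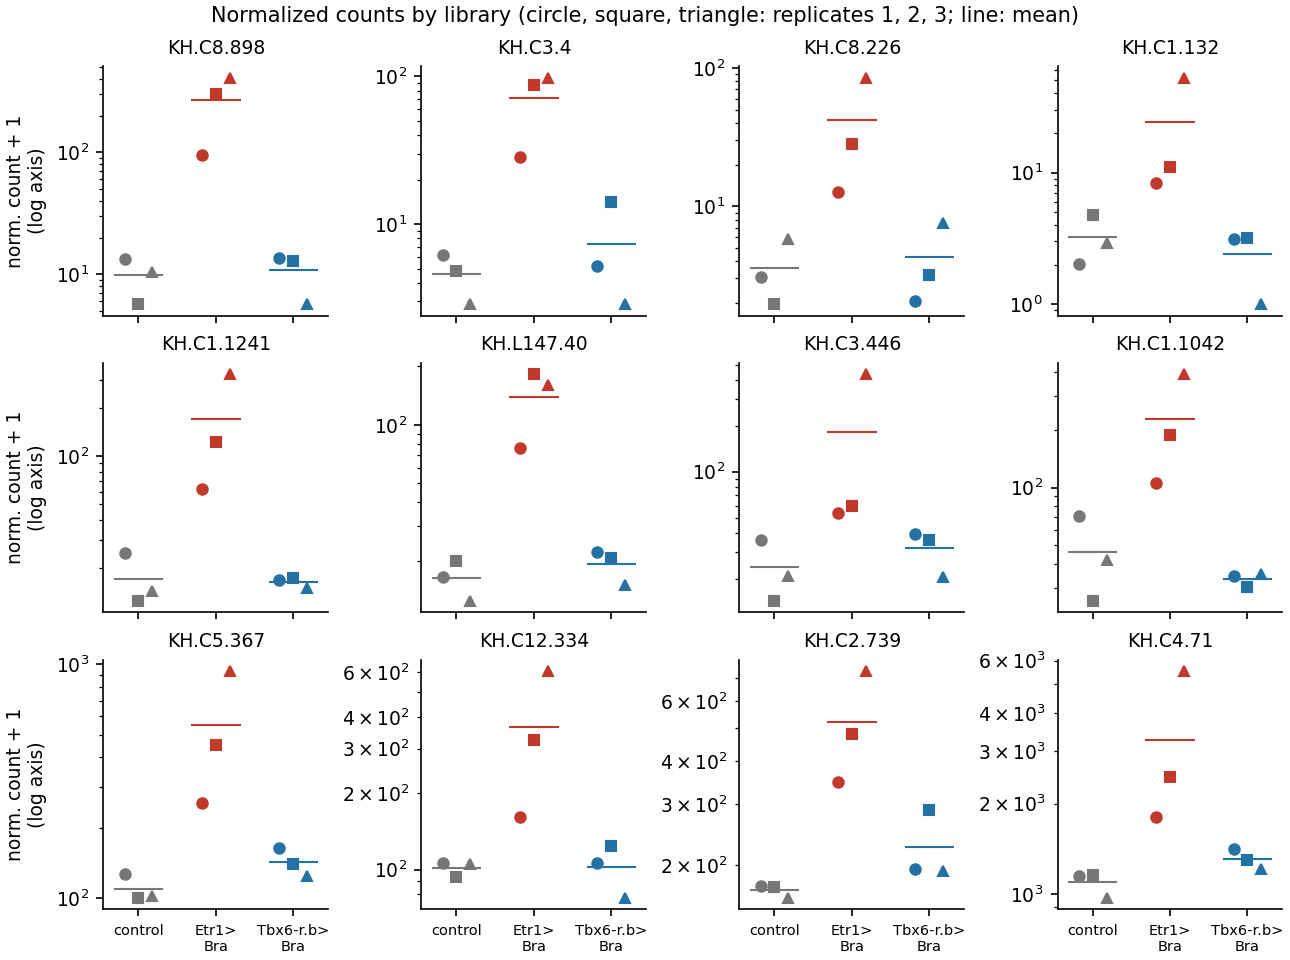
Normalized counts plus 1 (vertical log axis) in each library for the 4 members with the largest mean E in each class of control level: under 10 (top), 10 to 100 (middle) and over 100 (bottom); symbols mark replicates 1, 2 and 3 and lines mark means. In each panel the Etr1>Bra libraries lie above all controls, as with 302 and 409.6 against at most 12.4 for KH.C8.898, and replicate 3 is often the highest of them.

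Members that were lower with Tbx6-r.b>Bra than in control in every replicate number were few and weakly expressed. KH.C14.221 stood at 8.24, 12.4 and 6.64 in control, 30.7, 14.1 and 23.8 in the Etr1>Bra libraries, and 6.34, 2.17 and 3.74 in the Tbx6-r.b>Bra libraries. Its mean T of −1.02 ± 0.92 was the lowest among members and rested on 12 reads against 28 in control. KH.S553.5 stood at 10.3, 9.50 and 8.54 in control, 13.7, 22.1 and 40.7 in the Etr1>Bra libraries, and 4.22, 5.43 and 5.61 in the Tbx6-r.b>Bra libraries. The 3 groups did not overlap for this gene, which rested on 29, 76 and 15 reads. With so few reads, the size of these differences is uncertain. Over replicates 1 and 2 alone, mean E was 0.98 for KH.C14.221 and 0.76 for KH.S553.5.

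The Etr1>Bra libraries differed in how far the members were raised. Summed over the 76 members, normalized counts were 10608, 9772 and 10234 in the control libraries and 16715, 23060 and 40921 in the Etr1>Bra libraries. With Tbx6-r.b>Bra the sums were 12009, 13673 and 11489, against 10510, 9665 and 10134 in the controls of that table. The median E over members was 0.62 in replicate 1, 1.30 in replicate 2 and 2.20 in replicate 3, while the median T was 0.08, 0.41 and 0.25. E was highest in replicate 3 for 73 members, in replicate 2 for 2 and in replicate 1 for 1. All 76 members had E of at least 1 in replicate 3, 56 did in replicate 2 and 17 in replicate 1.

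This unevenness was shared with the commonly raised genes, of which 207 (90.4%) had their highest E in replicate 3, against 96.1% of the members. Over all 10671 genes the share was 33.0%. The commonly raised genes had a median E of 1.18, 1.87 and 2.83 and a median T of 1.05, 1.71 and 1.26 in replicates 1, 2 and 3. A few members were even across libraries. KH.C1.1276 had E of 1.32, 1.35 and 1.5, from 6.18, 5.70 and 9.49 in control and 16.9, 16.1 and 28.8 with Etr1>Bra. Its T was 0.56, −0.05 and 0.92, with a mean of 0.48 close to the limit, and it rested on 22 control reads. KH.C1.1294 had E of 1.29, 1.16 and 1.52, from 49.5, 34.2 and 56.9 in control and 123, 77.5 and 166 with Etr1>Bra. Its T was 1.19 in replicate 2 and near 0 in the others.

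Across the 76 members, the rank of E was alike in replicates 2 and 3 (Spearman's rho 0.52) and less so between replicate 1 and either of them (0.17 and 0.15). The ranks of T gave −0.34 between replicates 1 and 2 and near 0 for the other pairings (0.00 and 0.02). Over the 10671 genes the corresponding values for E were 0.39 between replicates 2 and 3, and 0.07 and 0.33 for replicate 1 with 2 and with 3. Those for T were 0.29 between replicates 1 and 2, 0.12 between 1 and 3, and −0.08 between 2 and 3. These are descriptions across genes, which share libraries and are not replicates, and the limits of the rule on the means shape them.

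Replicates outside the choice gave a measure that the choice did not fix. The same rule was applied to 2 of the replicate numbers, and the chosen genes were read in the number left out. Chosen on replicates 1 and 2, 25 genes passed, of which 21 were members. In replicate 3 their median E was 2.62 and their median T 0.27, and 24 of 25 had E above T (96%, against 52.4% of all genes). The commonly raised genes, chosen with replicate 3 included, also had a higher median E than median T there (2.83 and 1.26). E in replicate 3 took part in choosing them, so these medians are not a reading outside the choice. They therefore do not show whether E above T there was particular to genes chosen for a small T. Of the 25 genes chosen on replicates 1 and 2, 18 had E of at least 1 with T under 0.5 in replicate 3 (72%). Of all 10572 genes with an Etr1>Bra mean of at least 20, 2.29% met both limits.

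Read in the other replicates, the separation was smaller. Chosen on replicates 1 and 3, 131 genes passed, of which 67 were members. Their medians in replicate 2 were 1.15 for E and 0.57 for T, so the median T exceeded the limit that had chosen them. E was at least 1 with T under 0.5 in 28 of them (21.4%, against 0.44% of all genes), and E exceeded T in 109 (83.2%, against 49.4%). Chosen on replicates 2 and 3, 114 genes passed, of which 53 were members. Their medians in replicate 1 were 0.46 for E and 0.19 for T. Both limits were met by 8 (7.02%, against 0.421% of all genes), and E exceeded T in 85 (74.6%, against 51.9%).

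T above 0 was found in 79 of 114 genes in replicate 1, 112 of 131 in replicate 2 and 19 of 25 in replicate 3. The shares over all genes were 49.1%, 49.8% and 49.8%. Genes chosen for a small T therefore lay, more often than not, above control with Tbx6-r.b>Bra in a replicate that had not chosen them, though by less than with Etr1>Bra. E and T of the replicate left out share its control library, whereas that library drops out of E above T, apart from the 1.11% by which the scaling of the controls differed at most between the tables.

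**Figure D4:**
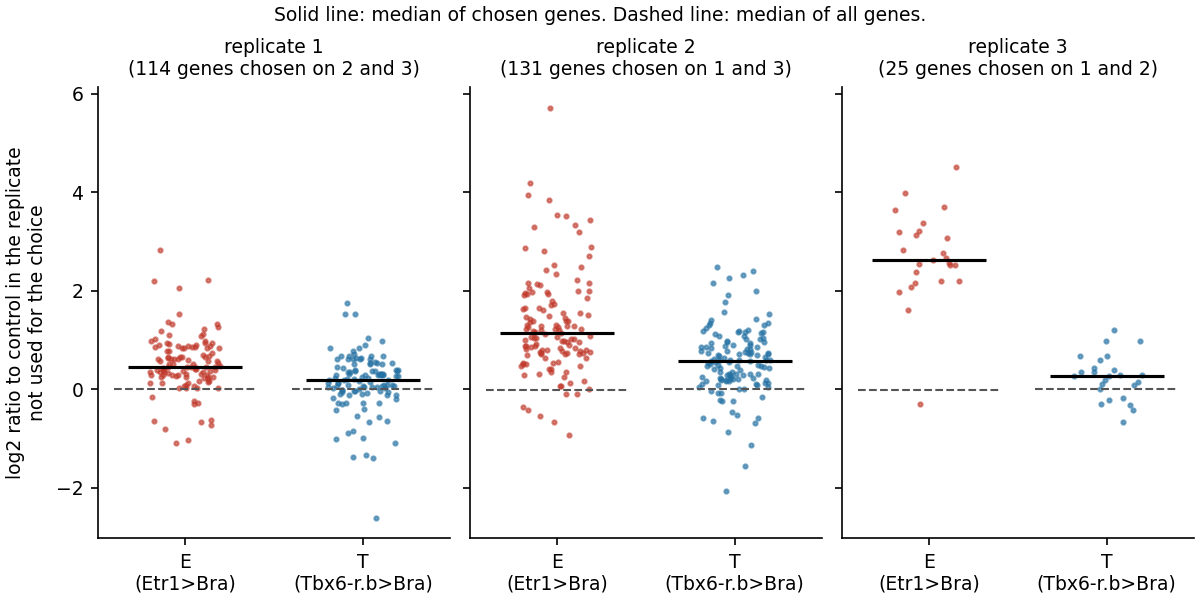
Log2 ratio to control, in the replicate number left out of the choice, of genes chosen by the same rule on the other numbers; each point is a gene, solid lines are medians of the chosen genes and dashed lines medians of all genes. Median E is 0.46, 1.15 and 2.62 in replicates 1, 2 and 3 and median T is 0.19, 0.57 and 0.27, all above the dashed lines near 0.

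The fit across all genes, limma on log2(normalized count + 1), gave these counts, which are background to the choice and not support for it. With Etr1>Bra against control, 2 of the 76 members had an adjusted p under 0.05 and were higher, where 0.13% of 11514 genes were called higher. With the replicate number as a block, 59 members were called higher, against 3.49% of genes. Without the block, DESeq2 called 49 members (2.54% of genes) and edgeR 2 (0.104%), and edgeR with the block called 64 (3.73%). The blocked limma count without replicate 1 was 74 members, where 907 of 11511 genes were called higher. Without replicate 3 it was 49 of 74 members tested, where 300 of 11442 genes were called higher. Without replicate 2 it was 0, where 8 of 11485 genes were called higher. At an unadjusted p under 0.05, 71 members were then higher, against 7.72% of genes. Unblocked, leaving out the Etr1>Bra library of replicate 1, 2 or 3 gave 34, 0 and 1 members. Genes called higher were then 161 of 11529, 0 of 11497 and 18 of 11446, and the last fit tested 73 members. Leaving out control replicate 1, 2 or 3 gave 0 members, where 5, 2 and 1 genes were called higher. The Etr1>Bra libraries lay above all controls for 63 members, against 6.9% of genes.

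With Tbx6-r.b>Bra against control, 9 members had a mean under 10 and were not tested. Of the other 67, limma called 0 (7 were higher at an unadjusted p under 0.05, against 3.01% of genes), where it called 0.507% of genes higher. Without the block edgeR and DESeq2 also called 0, against 0.55% and 1.05% of genes. With the block 4 members were called higher by limma, against 2.98% of genes, and 4 by edgeR, against 2.97%. Members called lower numbered 0 in these fits. The blocked limma count was 1, 0 and 5 without replicate 1, 2 and 3. Genes called higher were then 232 of 11457, 219 of 11405 and 375 of 11431. All Tbx6-r.b>Bra libraries lay above all controls for 14 of the 67, against 4.4% of genes. A missed threshold does not show that these genes were unchanged.

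The constructs were also compared directly, on reads of those 6 libraries scaled together. Without the block limma called 0 of 11514 genes and 0% of genes were higher with Etr1>Bra, while 61 members were higher with it at an unadjusted p under 0.05, against 2.16% of genes. The members were chosen on these same values. The edgeR test called 0 genes, and DESeq2 called 24 members, against 0.321% of genes. With the block, 68 members were called higher with Etr1>Bra by limma, against 1.83% of genes, and 68 by edgeR, against 1.88%. The blocked limma calls rest on a variance trend shared by genes, not on the spread of each gene. The blocked limma count was 58 without replicate 1, 0 without replicate 2 and 15 without replicate 3. Genes called higher were then 153 of 11524, 0 of 11468 and 36 of 11436, and the last fit tested 74 members. Unblocked, leaving out the Etr1>Bra library of replicate 1, 2 or 3 gave 30, 0 and 3 members, of 75, 76 and 73 tested. Genes called higher were then 62 of 11515, 0 of 11480 and 4 of 11459. Leaving out the Tbx6-r.b>Bra library of replicate 1 gave 1 member, where 1 of 11509 genes was called higher. Every Etr1>Bra library lay above every Tbx6-r.b>Bra library for 47 members, against 2.82% of genes. Within replicate numbers, E exceeded T in all 3 for 69 members, against 10.8% of the 10671 genes and 42.4% of the commonly raised genes. The rule largely fixes the count of members.

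The members were spread over the gene models. IDs that begin with KH.C carry a chromosome number, and 56 members (73.7%) had one, as did 70.7% of the 10671 genes. Chromosome 1 had the most members, 10 (13.2% of members, against 8.74% of genes). Chromosomes 2 and 9 had 6 each, and each of chromosomes 1 to 14 had at least 1. The number of member pairs with consecutive ID numbers was 0. These shares were not tested.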

How the data were processed

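RNA sequencing libraries of 9 whole-embryo samples were analysed from 2 deposited tables, each with 3 control libraries and 3 libraries of a construct. The values the authors deposited are, per the file headers, library-size normalized counts (the signal used here) and a second block of regularized log2 values. The submitters' processing notes name TopHat2 (2.9.8b) and DESeq (1.8.1). Which program counted reads, with what strand setting and on which build, is not given in the sources used here. Reads from overlapping, antisense or near-identical gene models may therefore be mixed.

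In each library the normalized values were whole multiples of 1 step (tolerance 0.01), so whole reads were recovered, and 0 control reads differed between tables. Control scaling differed between the tables by at most 1.11%. Members and named genes were chosen with earlier results of these data known. Named members are the 4 with the largest mean E per control class, the 3 with the lowest mean T, the 3 with the highest Etr1>Bra mean, and the 2 with the smallest and 2 with the largest range of E. Also named are the genes beside each threshold.

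Fits were made in R 4.3.3 with limma 3.58.1, using its mean-variance trend, on genes with a mean of at least 10, with two-sided Benjamini-Hochberg adjusted p-values over all genes tested. The plan named edgeR should raw counts be deposited; as they were not, edgeR 4.0.16 and DESeq2 1.42.0 were alternatives on recovered reads. Deviations from group means correlated at 0.48 to 0.72 between libraries with the same replicate number, and at −0.42 to −0.10 between different numbers, so the numbers were taken to pair the samples and blocked fits are given. Per gene, 2 residual degrees of freedom remain in a blocked fit on all libraries compared, and fewer when a replicate number is left out. For Tbx6-r.b>Bra against control and between constructs, the blocked limma p-values were those of a normal distribution, so gene variances were fully pooled. Calls in these fits rest on the variance trend shared by genes, not on the spread of each gene. Procedures were tested on simulated data that held no shared effect of the replicate number. Those tests do not show how the fits behave with the spread found here. Ratios on this scale understate changes of low genes.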

Additional observations from a re-analysis of the deposited data

How the results depend on the processing

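The set of members changed with the kind of value, the replicates and the limit for T. Without 1 replicate number the rule chose 25 to 131 genes: 114 without replicate 1, 131 without replicate 2 and 25 without replicate 3, of which 53, 67 and 21 were among the 76. A limit on mean T of 0.25 left 35 genes, and a limit of 0 left 9. With regularized log2 values, 23 genes passed and 2 of them were members. The reason was not tested. The other settings of the rule gave 63 to 101 genes. They were pseudocounts of 5 and 0.5, an Etr1>Bra mean of 50 or 10, ratios of group means and TMM scaling of all libraries. Ratios of group means gave the 101, with 69 of the 76, and did not require E above 0 in every replicate number. Of the 76, 67 and 74 passed at pseudocounts of 5 and 0.5. At an Etr1>Bra mean of 50 and 10, 63 and 76 passed, and 74 did under TMM. Under TMM all 38 values of mean E and mean T of the named members moved by less than 1 SD. That was a loose measure, since TMM moved the median over genes by only −0.0034 for mean E and −0.0035 for mean T. The named member KH.L37.72 still fell to a mean E of 0.999, under the limit of 1. Describing the same members without replicate 3 was added after seeing the data.

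Counts of calls depended on the replicate block and on single libraries. For Etr1>Bra against control, 16 genes were called (2 members); 447 (59) with the replicate block, 475 (64) in edgeR with the block and 294 (49) in DESeq2. The blocked fit gave 1233 (74), 8 (0) and 332 (49) without replicate 1, 2 and 3. Leaving out single libraries gave 0 to 170 genes and 0 to 34 members. For Tbx6-r.b>Bra, 61 genes were called (0 members); 446 (4) with the block, 444 (4) in edgeR with the block and 140 (0) in DESeq2. The blocked fit gave 270 (1), 296 (0) and 483 (5) without replicate 1, 2 and 3, and single libraries 14 to 94 genes and 0 members. Between constructs, 0 genes were called; 312 (68 members) with the block, 307 (68) in edgeR with the block and 39 (24) in DESeq2. The blocked fit gave 203 (58), 0 (0) and 61 (15), and single libraries 0 to 72 genes and 0 to 30 members. The causes were not tested. Low reads limit the members with a control mean under 10.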
